A study of Mus musculus with 6 samples.

Results

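The Hoxb cluster is 1 of the 4 clusters of homeobox genes of the mouse. Its 10 protein-coding genes, Hoxb1 to Hoxb9 and Hoxb13, were chosen by name from the 35591 rows of a table of gene expression in tailbud. RNA had been sequenced from the dissected tail end of 6 mouse embryos of the FVB/NJ strain, cut 1.5 somites behind the last somite when 8 somites had formed. The piece holds the presomitic mesoderm and the progenitors from which the vertebral column grows. The WT group had 3 embryos (Smchd1 +/+). The MommeD43 group had 3 embryos that carried MommeD43 on both chromosomes. MommeD43 is a missense allele of the chromatin protein gene Smchd1 and came from a chemical (ENU) mutagenesis screen. In both groups replicate 1 was a male and replicates 2 and 3 were females. By the labels the 2 males shared a mother, while no females did. The question was whether the mutant allele went with another level of the Hox genes, to which SMCHD1 protein is known to bind.

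HOX proteins are transcription factors that bind DNA through the homeodomain, often together with PBX and MEIS proteins, and give cells their position along the head-to-tail axis. The genes of a cluster lie in the order in which they switch on. Hoxb1 at the 3′ end comes first and marks the early primitive streak and the hindbrain. Central genes such as Hoxb4 to Hoxb9 follow in the trunk under the control of WNT signals and CDX proteins. Hoxb13 lies apart at the 5′ end and is known as a late gene of the tail.

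All members are on the plus strand of chromosome 11 (GRCm38). Hoxb13 spans chr11:96194316-96197447 and stands alone. Hoxb9 begins at 96271457, and Hoxb1, at the other edge of the main group, ends at 96368256. The homeobox is the 180-base stretch of exon 2 in the pair Hoxb6 and Hoxb7 that encodes the homeodomain. It is shown for these genes because they were the most alike of the 45 pairs of members, and so the pair between which reads could most easily be confused. Capitals mark the 20 bases that differ.
Hoxb6, chr11:96300689-96300868: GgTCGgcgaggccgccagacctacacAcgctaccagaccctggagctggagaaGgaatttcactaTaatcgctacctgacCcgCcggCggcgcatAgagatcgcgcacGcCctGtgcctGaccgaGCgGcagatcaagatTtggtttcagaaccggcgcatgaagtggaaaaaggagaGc
Hoxb7, chr11:96289385-96289564: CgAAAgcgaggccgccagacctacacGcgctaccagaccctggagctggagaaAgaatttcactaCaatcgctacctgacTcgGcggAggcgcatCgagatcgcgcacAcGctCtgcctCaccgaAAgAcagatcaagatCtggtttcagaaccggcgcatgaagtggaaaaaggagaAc

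Identity over the homeobox was 88.9% for Hoxb6 and Hoxb7, and the longest run without a difference was 37 bases, below the read length of 75 bases. The least alike were Hoxb5 and Hoxb13, with 50.6%. No 75-base window of the spliced transcripts of any member occurred in another gene on the same strand, so reads of the sequenced strand can be assigned to single members. On the opposite strand, 2107 of 4174 windows of Hoxb3 and 879 of 3485 windows of Hoxb2 lay in the antisense gene Hoxb3os, and 26 of 2785 windows of Hoxb5 in Hoxb5os. Whether the counting used the strand is not given in the sources used here. If it did not, reads of Hoxb3, Hoxb2 and Hoxb5 and of their antisense partners cannot be told apart there.

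RefSeq promoters were at hand for 3 of the 10 members, Hoxb1, Hoxb4 and Hoxb8. Those of Hoxb1 and Hoxb8 are shown because the levels of these genes had the highest correlation over the embryos. Each run is the 250 bases before the RefSeq start on the plus strand of GRCm38.p6. Capitals mark matches, on either strand, to the HOX-PBX motif (TGATNNAT) and to the CDX motif (TTTATG).
Hoxb1, chr11:96365508-96365757: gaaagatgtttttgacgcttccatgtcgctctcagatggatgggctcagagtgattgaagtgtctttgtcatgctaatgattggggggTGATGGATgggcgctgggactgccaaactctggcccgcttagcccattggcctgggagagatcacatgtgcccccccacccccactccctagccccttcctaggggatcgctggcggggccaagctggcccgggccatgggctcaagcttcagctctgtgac
Hoxb8, chr11:96281655-96281904: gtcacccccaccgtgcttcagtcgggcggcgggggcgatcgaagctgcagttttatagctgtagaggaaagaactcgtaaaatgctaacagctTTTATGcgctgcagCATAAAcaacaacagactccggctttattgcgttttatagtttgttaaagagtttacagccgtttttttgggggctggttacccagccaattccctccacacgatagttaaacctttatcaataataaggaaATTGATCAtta

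The Hoxb1 promoter had 1 match to the HOX-PBX motif, with its first base at -162 from the start, and 0 to the CDX motif. The Hoxb8 promoter had 2 CDX matches, at -157 and -143, and 1 HOX-PBX match at -11. No matches overlapped. Of 32851 promoter windows of this length, 7.68% held the HOX-PBX letters and 10.8% the CDX letters. The Hoxb4 window had no match. A match describes the letters of the window only.

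Library totals recovered from the values ranged from 10957916 to 47298347 reads, lowest in MommeD43 replicate 1 and highest in MommeD43 replicate 2. Tailbud markers were well expressed in every library: the summed level of 10 markers such as T, Tbx6 and Msgn1 ran from 560.0 to 809.6 RPKM (reads divided by exon length and by library size). Markers of formed somites summed to between 1.78 and 2.55 RPKM, and 4 of the 6 did not pass the filter on reads. Of 5 hindbrain and anterior markers, 4 (Otx2, En1, Egr2 and Six3) did not pass it, so the early hindbrain genes of the cluster were measured here outside the hindbrain. Blood markers varied most, from 5.48 to 468.5 RPKM, and yolk sac endoderm markers from 25.9 to 334.4 RPKM. Smchd1 itself was at 7.31, 8.58 and 8.31 RPKM in WT and at 7.94, 7.67 and 7.15 RPKM in MommeD43. A missense allele need not change that level, so it does not check the labels.

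Hoxb9 dominated the cluster. It read 125.9, 141.6 and 150.9 RPKM in WT replicates 1, 2 and 3, and 115.8, 146.5 and 118.5 RPKM in MommeD43 replicates 1, 2 and 3. It ranked 1 of the 39 Hox genes of the table and 252 of 13617 autosomal genes that passed the filter. Of the summed RPKM of the 9 detected members, Hoxb9 made 45.8% ± 6.29 (SD, n = 3) in WT and 42.3% ± 3.53 (SD, n = 3) in MommeD43. That sum lay between 282.4 and 326.7 RPKM, and the groups overlapped.

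Hoxb1, the gene of the opposite end, was the next most abundant. Its levels were 60.6, 34.6 and 39.8 RPKM in WT and 46.9, 45.3 and 49.9 RPKM in MommeD43. The 3 mutant embryos lay close together, inside the range of the WT embryos, which spanned a ratio of 1.75. Hoxb8, which lies next to Hoxb9 and is known from trunk and limb patterning, stood at 54.5, 38.6 and 43.7 RPKM in WT and at 44.9, 45.2 and 48.7 RPKM in MommeD43. Hoxb1 exceeded Hoxb8 in 4 of 6 libraries, and their mean log2 difference of -0.01 ± 0.12 (SD, n = 6) did not separate them.

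Hoxb6, a gene of the posterior mesoderm, followed at 29.0, 20.4 and 20.1 RPKM in WT and 23.3, 22.6 and 29.5 RPKM in MommeD43. It was below Hoxb8 in all 6 libraries. Hoxb2, which acts in the hindbrain downstream of Egr2, read 15.7, 13.6 and 12.5 RPKM in WT and 13.3, 15.6 and 16.4 RPKM in MommeD43. Hoxb3 read 13.5, 13.9 and 16.5 RPKM in WT and 12.5, 15.7 and 12.5 RPKM in MommeD43. These neighbours were not separated: Hoxb2 was the higher in 3 of 6 libraries.

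Hoxb4, best known for its role in blood stem cells and in the neck vertebrae, read 13.3, 9.90 and 10.01 RPKM in WT and 13.8, 12.3 and 9.35 RPKM in MommeD43. Hoxb7 read 10.3, 8.80 and 10.95 RPKM in WT and 8.51, 10.1 and 10.5 RPKM in MommeD43. Hoxb4 exceeded Hoxb7 in 4 of 6 libraries, and Hoxb3 exceeded Hoxb4 in 5 of 6. Hoxb5 was the lowest of the detected members in every library, at 3.96, 3.40 and 2.72 RPKM in WT and 3.28, 3.42 and 4.36 RPKM in MommeD43.

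Hoxb13 was at the limit of detection. It had 0, 2 and 0 reads in WT and 0, 3 and 0 reads in MommeD43, none above the floor of 3 reads. This floor corresponds to 0.0288 RPKM in the deepest library and to 0.124 RPKM in the shallowest. No fold change can be given, and a low level was not detectable at this depth.

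**Figure D1:**
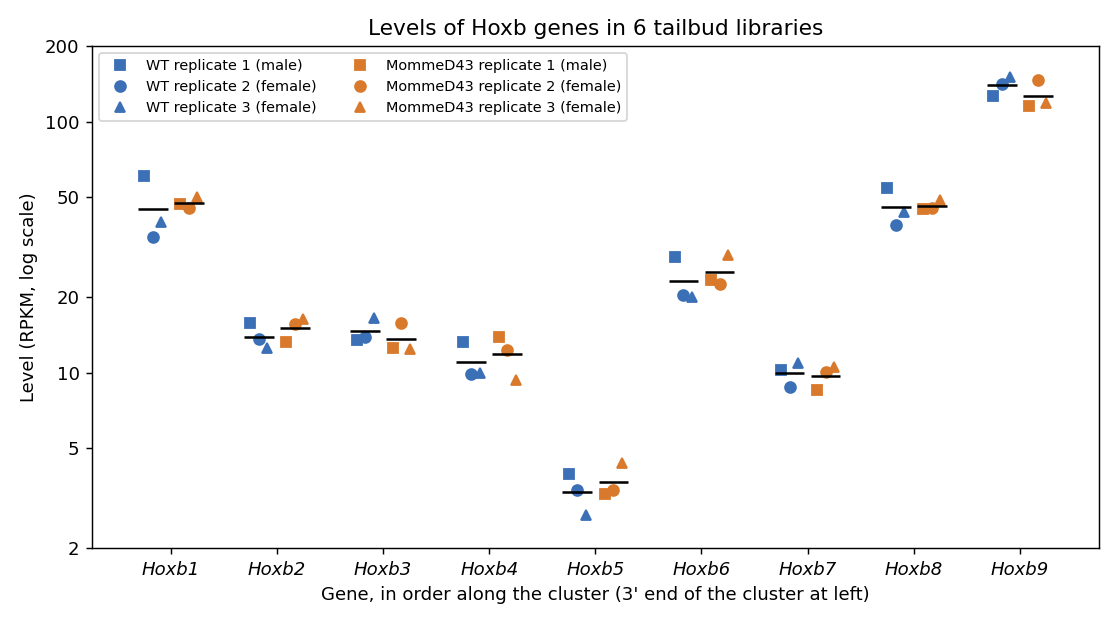
Level of 9 Hoxb genes in 6 tailbud libraries, in RPKM on a log axis, ordered from Hoxb1 at the 3′ end of the cluster to Hoxb9. Points are libraries (blue WT, orange MommeD43, squares males, circles and triangles females) and bars are means of 3. Hoxb9 lies between 115.8 and 150.9 RPKM, above every other member, and Hoxb5 lies lowest.

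The level did not rise or fall steadily along the cluster. It was high at the ends, Hoxb1 and the pair Hoxb8 and Hoxb9, and lower between. RPKM depends on the exon length by which reads are divided. The length used for Hoxb2, 3488 bases, and for Hoxb5, 2786 bases, takes in transcripts with a retained intron. Dividing the same reads by the length of the exons of protein-coding transcripts alone, 1628 and 1895 bases, gave higher mean levels. That of Hoxb2 was 31.1 RPKM in place of 14.5 RPKM, and that of Hoxb5 was 5.18 RPKM in place of 3.52 RPKM. Reads were not recounted over these exons, so reads outside them stayed in and the values are upper bounds. By these bounds Hoxb2 ranked above Hoxb6, and Hoxb7 above Hoxb4, which a recount could change. Hoxb9, Hoxb1 and Hoxb8 kept the first places and Hoxb5 the last, and comparisons between embryos were not touched.

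No member differed between MommeD43 and WT beyond the spread between embryos. Of the 9 members tested, 0 passed an adjusted p of 0.05 (limma over 13617 autosomal genes, Benjamini-Hochberg), and 0 had an unadjusted p under 0.05. Over all autosomal genes 0% passed the adjusted threshold and 2.40% the unadjusted. The smallest unadjusted p of a member was 0.205 (limma), for Hoxb9. For all 9 members the 3 mutant and 3 WT levels overlapped, whereas over all genes 7.08% did not overlap. By the recovered reads, voom also called 0 members and 0 autosomal genes, and gave 425 genes an unadjusted p under 0.05.

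The estimates were small in both directions. Members higher in MommeD43 on average numbered 6, and 3 were lower, Hoxb3, Hoxb7 and Hoxb9 (33.3%, against 49.0% of all genes). The median log2 fold change of the members was 0.09, and that of all autosomal genes was 0.00. Hoxb9 had the most negative value, -0.14 ± 0.10 (SE) on the log2 scale, and Hoxb5 the most positive, 0.14 ± 0.17. The remaining values were 0.12 ± 0.18 for Hoxb1, 0.12 ± 0.11 for Hoxb2, -0.11 ± 0.11 for Hoxb3, 0.09 ± 0.16 for Hoxb4, 0.13 ± 0.16 for Hoxb6, -0.04 ± 0.11 for Hoxb7 and 0.04 ± 0.11 for Hoxb8. All 9 of the 95% intervals, each taken alone, included 0 and lay between -0.38 and 0.53 on the log2 scale. These data come from whole tissue, in which fewer cells of a type and less RNA per cell cannot be told apart.

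**Figure D2:**
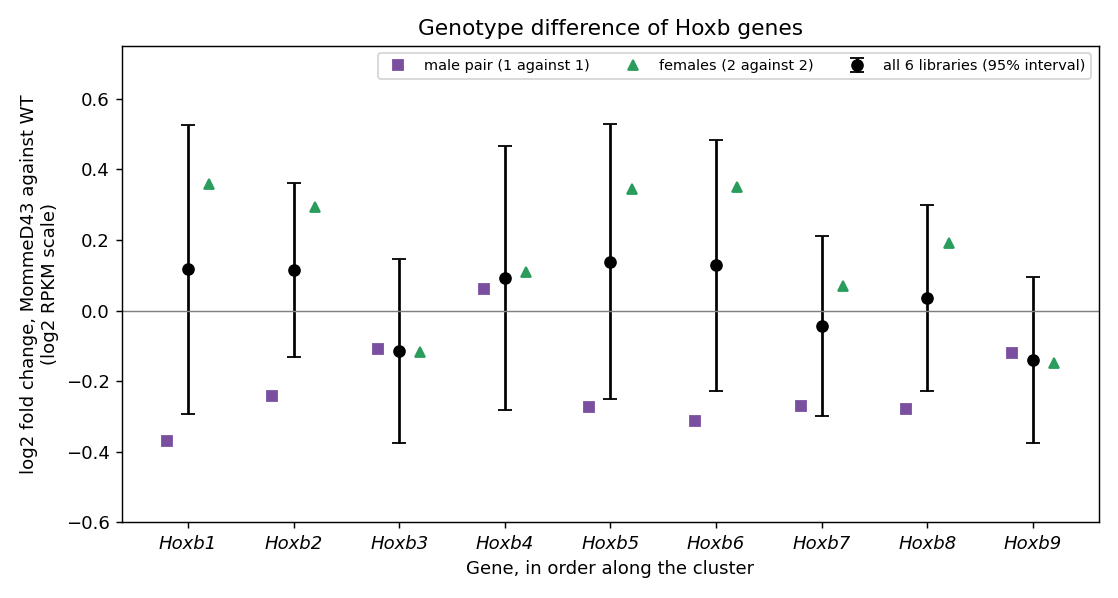
log2 fold change (MommeD43 against WT, log2 RPKM scale) of 9 Hoxb genes along the cluster. Black points with bars are the fit to all 6 libraries with its 95% interval, purple squares the male pair and green triangles the females. All intervals include 0, and for Hoxb1, Hoxb2, Hoxb5, Hoxb6, Hoxb7 and Hoxb8 the male pair and the females lie on opposite sides of 0.

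The 2 ends of the cluster were also set against each other within each embryo, which does not depend on how libraries are scaled. Hoxb9 exceeded Hoxb1 in every library, by a ratio of 2.08, 4.10 and 3.80 in WT and of 2.47, 3.23 and 2.38 in MommeD43. The groups overlapped, since WT replicate 1 had the lowest ratio of all. On the log2 scale the difference between these genes was 1.67 ± 0.54 in WT and 1.41 ± 0.24 in MommeD43 (SD, n = 3 each). The groups differed by -0.26 (two-sided exact permutation test, p = 0.5, where 20 regroupings allow a smallest p of 0.1). Without WT replicate 1 the value was -0.57, and without WT replicate 2 it was -0.08, so these embryos decided its size.

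Single embryos stood apart in several members. WT replicate 1, a male, was above the mean of all 6 libraries in 7 of 9 members, most in Hoxb1 by 0.41 on the log2 scale. WT replicate 2, a female, was lowest for Hoxb1 and Hoxb8. MommeD43 replicate 3 was highest for Hoxb2, Hoxb5 and Hoxb6 and lowest for Hoxb3 and Hoxb4. The plot of deviations shows these patterns side by side.

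**Figure D3:**
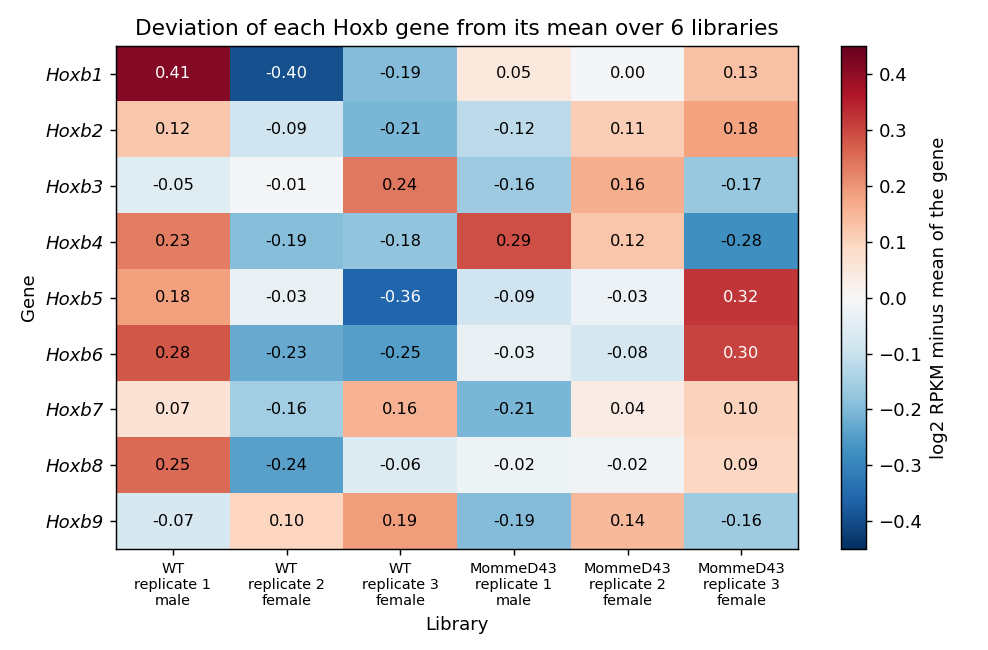
Deviation of each Hoxb gene (rows) in each library (columns) from the mean of that gene over 6 libraries, in log2 RPKM, red above and blue below. Hoxb1 in WT replicate 1 (0.41) and in WT replicate 2 (-0.40) are the extremes, and the rows of Hoxb3 and Hoxb9 run alike.

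Some pairs of members ranked the embryos alike, though no pair passed a p adjusted over the pairs. Among 36 pairs, Hoxb1 and Hoxb8 had the highest correlation over the 6 libraries (Pearson r = 0.978, exact permutation p = 0.00694, Spearman rho = 0.943, exact p = 0.0167). It was 0.846 without the 2 libraries farthest from the median of Hoxb1 and 0.953 without WT replicate 1. Hoxb3 and Hoxb9 followed (r = 0.945, exact permutation p = 0.00556, rho = 0.943, exact p = 0.0167, and r = 0.936 without the 2 farthest). Hoxb2 and Hoxb5 ranked the libraries alike (r = 0.892, exact permutation p = 0.00278, rho = 1.0, exact p = 0.00278, and r = 0.714 without the 2 farthest). These 3 pairs shared an adjusted p of 0.0833 (Benjamini-Hochberg over 36 exact permutation tests), and 0 pairs passed 0.05. Within the 4 females, too few for a test, r was 0.977 for Hoxb1 and Hoxb8, 0.934 for Hoxb3 and Hoxb9 and 0.889 for Hoxb2 and Hoxb5, and 2 males give no value. Hoxb9 ran against Hoxb1, with r = -0.595 (exact permutation p = 0.233, rho = -0.6, exact p = 0.242), which is not separated from 0.

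**Figure D4:**
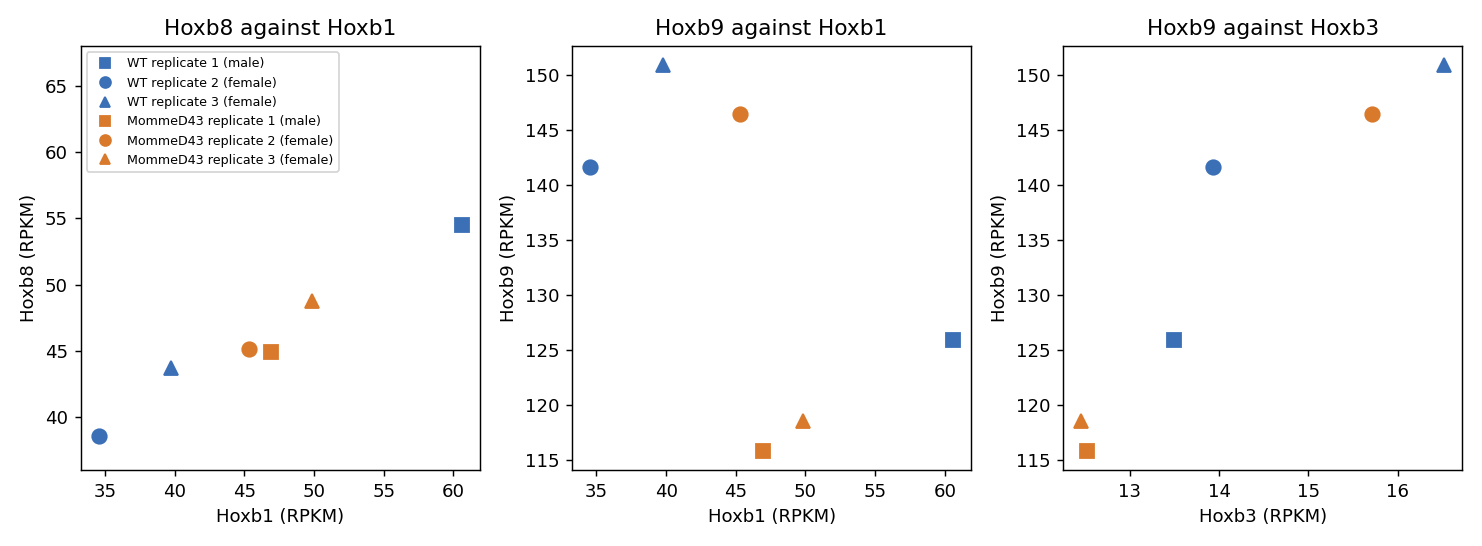
Levels in RPKM of 3 pairs of Hoxb genes, 1 point a library (blue WT, orange MommeD43, squares males). Hoxb8 rises with Hoxb1 (r = 0.978), Hoxb9 rises with Hoxb3 (r = 0.945), and Hoxb9 against Hoxb1 slopes downwards with more scatter (r = -0.595). Axes do not start at 0.

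Replicate 1 was the male in both groups, so the genotype difference was also taken separately by sex. In the male pair, 1 embryo against 1, 8 of 9 members were lower in MommeD43, Hoxb1 by a log2 fold change of -0.37 and Hoxb6 by -0.31. In the females 7 of 9 had a higher mean in MommeD43, with 0.36 for Hoxb1, 0.35 for Hoxb6 and 0.34 for Hoxb5. The shares of all genes with these directions were not taken, so these counts have no background beside them. Some members also varied together over the embryos and do not count as independent. Both MommeD43 females lay above both WT females for Hoxb1, Hoxb2, Hoxb5, Hoxb6 and Hoxb8, 5 of 9 members, and over all genes 21.8% did so. Both lay below both WT females for 0 of 9 members, and over all genes for 20.2%. Hoxb3 and Hoxb9 were lower in both comparisons, with -0.11 and -0.12 in the male pair and -0.12 and -0.15 in the females. In all, the sign differed between the sexes for 6 of 9 members and for 60.0% of all genes.

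The difference between the male pair and the females was tested in the same model. It passed an adjusted p of 0.05 for 0 of 9 members and for 0.272% of all genes (limma). Its smallest adjusted p was 0.164 (limma), for Hoxb1, with a difference of -0.73 ± 0.15 (SE) on the log2 scale, and 0.0628 with voom. At an unadjusted p under 0.05 stood 4 members, Hoxb1, Hoxb2, Hoxb6 and Hoxb8, beside 10.8% of all genes. With 1 male per genotype, sex cannot be told apart from the single embryo. Nor can it be told apart from the mother: by the labels the males shared a mother, while no females did. No spread between males was measured, so the SE above rests on the females and on the empirical Bayes step. For the females alone 0 members passed the adjusted threshold (limma), and the same 4 had an unadjusted p under 0.05, against 8.72% of all genes. These females also enter the test above, so this is not a separate result.

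Markers of tailbud progenitors moved between the same embryos. Their summed level was 809.6, 566.7 and 560.0 RPKM in WT and 583.7, 664.7 and 698.9 RPKM in MommeD43. It was highest in WT replicate 1, the embryo with the highest Hoxb1 and Hoxb8, and next in MommeD43 replicate 3. All 10 markers passed the filter, and 6 had a higher and 4 a lower mean in MommeD43, where 49.0% of all genes were lower. Blood markers summed to 5.48, 468.5 and 173.5 RPKM in WT and to 13.5, 208.4 and 14.7 RPKM in MommeD43, where Gata1 alone of 5 did not pass the filter. Yolk sac markers, all 6 of which passed it, summed to 101.9, 186.9 and 204.6 RPKM in WT and 334.4, 35.6 and 25.9 RPKM in MommeD43. Neural tube markers summed to between 18.9 and 21.5 RPKM over the libraries, hindbrain and anterior markers to between 0.753 and 1.1 RPKM, lateral mesoderm markers to between 144.8 and 175.0 RPKM and gut endoderm markers to between 99.65 and 117.8 RPKM. Over all marker lists, 0 genes passed the adjusted threshold (limma). Hes7, an oscillating gene of the presomitic mesoderm (log2 fold change 0.47 ± 0.20, SE), and Bmp4, a ligand of the lateral mesoderm (0.17 ± 0.06), had an unadjusted p under 0.05. Over all genes 2.40% did. The part of these tissues in the levels of the Hoxb genes was not tested.

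Genes that act upstream of the cluster gave no call either. Of 16 such genes (CDX factors, WNT and FGF ligands, retinoic acid enzymes and receptors, Gdf11, Lin28a and Lin28b), 15 were tested, 7 were higher and 8 lower on average, and 0 had an unadjusted p under 0.05. Cdx1, a CDX factor that activates Hox genes, read 122.9, 46.5 and 53.1 RPKM in WT and 80.3, 60.3 and 92.2 RPKM in MommeD43. WT replicate 1 was again the highest. Within the list this embryo was not the highest for Cdx4, Aldh1a2, Cyp26a1, Rara, Rarb, Gdf11 or Lin28b, and for Rarb it was the lowest. Cdx2 read between 148.2 and 182.7 RPKM, with a log2 fold change of -0.02 ± 0.09 (SE). Wnt3a, the ligand that drives axis extension, had 53.1 RPKM in WT replicate 1 and at most 37.6 RPKM elsewhere. All 9 HOX cofactor genes of the PBX, MEIS and PKNOX families were tested. Of these 7 were higher and 2 lower on average, with a median of 0.07 and 0 at an unadjusted p under 0.05. For this list and the upstream list the background is the same. Over all genes 49.0% were lower on average, and 2.40% had an unadjusted p under 0.05.

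Of 16 chromatin regulators, 15 were tested, among them Polycomb genes, which keep Hox genes silent, and Trithorax-related genes, which keep them active. The mean was lower in MommeD43 for 13 (beside 49.0% of all genes) and higher for 2, with a median log2 fold change of -0.08, and 0 had an unadjusted p under 0.05. The groups did not overlap for 3 of the 15, Ring1, Kmt2d and Lrif1, all lower, where over all genes 7.08% did not overlap and 3.55% were lower in that way. Lrif1, whose product binds SMCHD1, read 1.65, 2.03 and 1.77 RPKM in WT and 1.39, 1.30 and 1.63 RPKM in MommeD43 (log2 fold change -0.33 ± 0.16, SE).

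Of 4 noncoding genes inside the cluster that had expression values, 3 were tested, and 0 had an unadjusted p under 0.05. Other annotated noncoding genes there, such as Mir10a and Mir196a-1, had no values. Hoxb5os, antisense to Hoxb5, read 72.0, 94.0 and 105.3 RPKM in WT and 72.6, 134.6 and 70.3 RPKM in MommeD43, with a log2 fold change of -0.02 ± 0.25 (SE). It was thus above the level of Hoxb5 in every library. Hoxb3os, whose exons face 52.9% of those of Hoxb3 and 27.3% of those of Hoxb2, lay between 3.92 and 6.64 RPKM (0.09 ± 0.20). Gm53, between Hoxb13 and Hoxb9, lay between 4.52 and 7.15 RPKM (-0.24 ± 0.16). Of 8 neighbouring genes 4 were tested, and the heterochromatin protein gene Cbx1 stayed between 67.95 and 70.9 RPKM.

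The other clusters put these values in scale. The Hoxa cluster had a median log2 fold change of -0.05 over 11 genes, Hoxc 0.02 over 7 and Hoxd 0.09 over 8, next to 0.09 over the 9 Hoxb genes. In each of these other clusters 1 gene had an unadjusted p under 0.05, beside 2.40% of all genes, and in none did a gene pass the adjusted threshold (limma). The groups did not overlap for 0 of 11 Hoxa, 0 of 9 Hoxb, 1 of 7 Hoxc and 4 of 8 Hoxd genes (3 of these lower in MommeD43), beside 7.08% of all genes. In paralogue group 6, whose genes arose from a common ancestor, Hoxa6 had -1.19 ± 0.43 (SE), Hoxb6 0.13 ± 0.16 and Hoxc6 0.02 ± 0.14. In group 9 the values were -0.38 ± 0.23 for Hoxa9, -0.14 ± 0.10 for Hoxb9, 0.05 ± 0.20 for Hoxc9 and 0.17 ± 0.12 for Hoxd9. In group 13, Hoxa13 had -0.35 ± 0.33 and Hoxd13 -0.66 ± 0.22, and Hoxb13 and Hoxc13 were not tested. All 3 mutants lay below all 3 WT embryos for Hoxd13, and also for Hoxc10, Hoxd10 and Hoxd11. Over all genes 3.55% were lower in that way. The differences between paralogues were not tested. The Hoxb cluster has no genes of groups 10 to 12. In group 10 the values were 0.12 ± 0.26 (SE) for Hoxa10, -0.59 ± 0.18 for Hoxc10 and -1.001 ± 0.45 for Hoxd10. In group 11 they were -0.17 ± 0.29 for Hoxa11, -0.35 ± 0.58 for Hoxc11 and -0.61 ± 0.29 for Hoxd11, and the genes of group 12 were not tested.

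**Figure D5:**
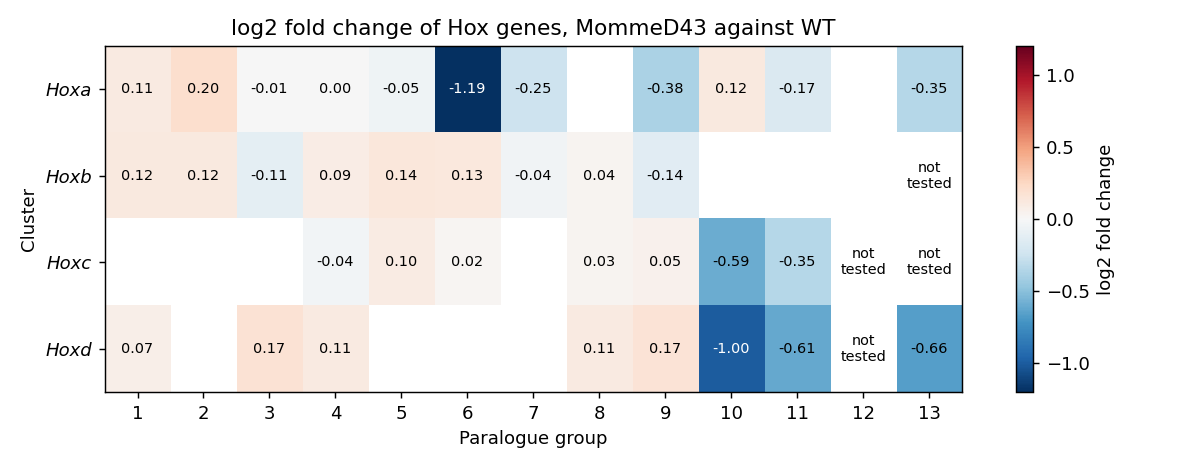
log2 fold change (MommeD43 against WT) of the Hox genes by cluster (rows) and paralogue group (columns), red higher and blue lower in MommeD43, with blank cells where the mouse has no gene. The Hoxb row runs from -0.14 to 0.14, and the lowest values elsewhere are -1.19 for Hoxa6 and -1.001 for Hoxd10.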

How the data were processed

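The Hoxb genes and all gene lists were chosen with earlier results of these data known. RNA of 6 tailbuds (100 ng each) had been made into TruSeq stranded mRNA libraries and sequenced as 75-base single reads. Per the labels and methods, the authors trimmed reads with Trim Galore 0.4.4, mapped them with HISAT2 2.0.5 to GRCm38.p6 and counted them per gene in SeqMonk. The deposited values are log2 RPKM, made by the authors from reads divided by exon length and library size. One label field names neural stem cells, but the tissue field and titles name tailbud, which was followed. Columns of unassigned samples numbered 0, and the mean columns of the authors were not used.

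Identifiers of 35555 of 35591 rows matched GENCODE M21 and gave exon lengths. Of 105814 values above the level of an undetected gene (0.9 read), 99.1% came out as whole reads within 0.02. Genes were kept with the CPM of 10 reads in a median library in at least 3 libraries and 15 reads in all, which left 13617 autosomal genes. Deposited log2 RPKM values entered limma 3.58.1 (R 4.3.3) with no pseudocount, and its empirical Bayes step used a trend on mean level. limma p-values are two-sided and adjusted by Benjamini-Hochberg over these genes. Embryos are the replicates. Exact permutation tests, correlations and sequence searches were run in Python 3.11.15 (numpy 2.4.6, scipy 1.17.1). The code was tested on simulated data. The floor was 3 reads per library and covers counting error only.

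All 10 members were named whatever their values. Of the lists, genes were named with an unadjusted p under 0.05, as paralogues of a member or where a result needed their level. Others were named after their values were seen: Ring1, Kmt2d, Lrif1, Cdx1, Wnt3a, Cbx1 and the genes of paralogue groups 10 and 11 other than Hoxc10. So were the upstream genes for which WT replicate 1 was not the highest. X-linked genes of the lists were not tested. Alternatives were other scalings, pseudocounts and filters, voom on recovered reads, a sex term, the replicate block, only the females and each library left out. Coding exon length and correlations in the females alone were added after seeing the data.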

Additional observations from a re-analysis of the deposited data

How the results depend on the processing

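Under none of 16 alternatives did a Hoxb gene pass an adjusted p of 0.05 (limma or voom), and 0 autosomal genes did, except for 10 with the females alone. Of 144 log2 fold changes of the 9 members under these alternatives, 136 kept their direction and 8 turned it. Many of the 136 could not turn. The other gene filters, the sex term and the replicate block leave the fold change of a gene unchanged in this balanced design. Hoxb7 turned to 0.0693 in the females alone. The other turns came from leaving out 1 library. Hoxb1 then ranged from -0.0521 (without WT replicate 2) to 0.3532, and Hoxb4 from -0.0294 (without MommeD43 replicate 1) to 0.2532. Hoxb5 ranged from -0.0059 (without WT replicate 3) to 0.2648. Hoxb7 ranged from -0.1342 to 0.0473, and was 0.0233 without WT replicate 3 and highest without MommeD43 replicate 1. Hoxb8 ranged from -0.0783 (without WT replicate 2) to 0.1713, and was -0.0029 without MommeD43 replicate 3. The causes were not tested, and each turned value was smaller than its SE. With a library left out, 0 to 3 members had an unadjusted p under 0.05: Hoxb1, Hoxb6 and Hoxb8 without WT replicate 1 (944 genes in all), and Hoxb9 without MommeD43 replicate 2 (425 genes).

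The difference between Hoxb9 and Hoxb1 ranged from -0.57 to -0.08 with each library left out, and was -0.51 in the females alone. Deviations of same-numbered embryos had r = -0.026, 0.167 and -0.173 over genes for replicates 1, 2 and 3. With 3 embryos per group these values cannot decide whether the numbers pair the embryos. By the labels the embryos of replicate 1 shared sex and mother, and the paper describes the embryos as paired by somite number. The main fit did not pair them, and the replicate block did. With the replicate block 0 autosomal genes and 0 Hoxb genes passed (limma), and 307 genes had an unadjusted p under 0.05. The difference between Hoxb9 and Hoxb1, -0.26, cannot change with this block, since every block holds both genotypes. With the same reads divided by protein-coding exon length, mean levels were 31.1 RPKM for Hoxb2, 5.18 RPKM for Hoxb5 and 11.8 RPKM for Hoxb7. Reads were not recounted over these exons, so these levels are upper bounds. For Hoxb13 the depth allowed no test.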

Other observations

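The mean of the centred log2 RPKM of the 9 detected members was compared with that of 10643 autosomal genes outside the Hox clusters. The most alike were Asb6 (r = 0.99, rho = 0.943), Htra1 (r = 0.988, rho = 1.0) and Flywch1 (r = 0.988, rho = 1.0) over 6 libraries. They were picked as the highest of many, so no test was made. Without the 2 libraries farthest from the median the r values were 0.971, 0.965 and 0.974. Htra1, a secreted protease, averaged 1.472 RPKM, Asb6 8.32 RPKM and Flywch1 16.1 RPKM. For Asb6 and Flywch1 the SD over the libraries was 0.11 and 0.06 on the log2 scale, smaller than that of any Hoxb gene.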
